A study of Mus musculus with 26 samples.

Results

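The left ventricles of all 14 mice lacking Ppp2r2a in heart muscle cells (cKO) were compared with those of all 12 floxed control mice (Ctrl), with sex as a blocking term, so that the response shared by males and females was described gene by gene. All 26 libraries of the series entered the comparison, 13 from males and 13 from females. Every mouse carried 2 floxed alleles of Ppp2r2a (genotype L/L). The cKO mice (aMHC-CreTg/0-Ppp2r2aL/L, 7 males and 7 females) also carried a Cre recombinase driven by the aMHC promoter, which is active in cardiomyocytes. The Ctrl mice (aMHC-Cre0/0-Ppp2r2aL/L, 6 males and 6 females) had no Cre. The sample labels give the strain as C57BL/6N, while the series text gives a mixed background, C57BL6/N for the floxed line and FVB for the Cre line. All mice were 12 to 16 weeks old and had received saline by pump for 2 weeks. Cre itself, FVB sequence that came with it and the loss of Ppp2r2a were all tied to the cKO genotype here and cannot be told apart. Cre-positive mice with an intact Ppp2r2a gene were not analysed here.

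Ppp2r2a encodes B55α, a regulatory subunit that steers the serine/threonine phosphatase PP2A to its substrates. The PP2A holoenzyme joins a scaffold, a catalytic and 1 of many regulatory subunits. The heart makes most of its ATP by oxidation of fatty acids in mitochondria, through the β-oxidation enzymes, the TCA cycle and the respiratory complexes, most of whose subunits are encoded in the nucleus. Fibroblasts make most of the collagen-rich matrix between the muscle cells.

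In units of 1e6 counts, library totals spanned 18.7 to 30.9 in Ctrl and 14.4 to 25.4 in cKO. Mean totals were 22.9 and 20.2, a difference that did not pass a two-sided permutation test within sex after adjustment (p = 0.0292; adjusted p = 0.117 over 4 library measures). The share of the 10 most abundant genes, the share of mitochondrially encoded genes and the number of genes with a count gave adjusted p values of 0.633, 0.91 and 0.633 in the same test. Ventricular muscle markers were abundant in every library: 10 cardiomyocyte genes together took 66486 to 88667 counts per 1e6 counts (CPM). The atrial myosin gene Myl7 did not pass 0.124 CPM in any library, and the lymphocyte and neutrophil list of 10 genes summed to at most 3.91 CPM. In this bulk tissue, fewer cells of a type and less RNA per cell cannot be told apart.

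The targeted transcript was lower in every cKO mouse than in any Ctrl mouse. Ppp2r2a (ENSMUSG00000022052) ranged from 24.1 to 47.7 CPM in Ctrl, with a median of 41.0. In cKO it ranged from 9.96 to 16.2 CPM, with a median of 13.8, so the genotypes did not overlap. Adjusted p values of genes are those of edgeR throughout. Ppp2r2a had a log2 fold change of -1.49 (SE 0.10; adjusted p = 1.12e-10), which left the cKO mean at 35.5% of the Ctrl mean. A two-sided permutation test within sex over 100000 resamples gave p = 2e-05. Ctrl males 3 and 6 stood apart with the lowest Ctrl levels, 24.9 and 24.1 CPM, and the next lowest was Ctrl female 1 at 36.2 CPM. Without these 2 males, the log2 fold change was -1.60.

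No other PP2A gene passed the test. Of 27 tested genes for PP2A subunits and regulators, Ppp2r2a was the only one called. Ppp2r2d, which encodes another B55 subunit of the same family, had means of 37.3 CPM in Ctrl and 36.6 in cKO (log2 fold change -0.03). The catalytic subunit genes Ppp2ca and Ppp2cb had log2 fold changes of -0.04 and 0.06, and the scaffold gene Ppp2r1a had -0.08 (edgeR adjusted p = 0.149). Ensa and Arpp19 encode inhibitors of PP2A bound to B55, and Mastl encodes the kinase that activates them. Their log2 fold changes were -0.08, -0.03 and 0.18, with no call.

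At an adjusted p under 0.05, 204 of 15357 genes tested differed between cKO and Ctrl (1.33%). Of these, 75 were higher in cKO (0.488% of genes tested) and 129 were lower (0.84%). Most changes were slight: the absolute log2 fold change of the 204 genes had a median of 0.17, against 0.07 for all genes tested. A change of 0.5 or more in log2 was seen in 20 of them, 14 upward and 6 downward. Among called genes, 101 had all 14 cKO mice on the called side of the Ctrl mean of their own sex. The fewest for any called gene was 11. The call itself favours such genes, so these counts add no separate support. That also holds for the counts of cKO mice beyond every Ctrl mouse, given below for named genes. Such counts were not made over all genes tested. The number of calls depended on single mice. It was 115 without Ctrl male 1, 76 without Ctrl male 5, 129, 126, 134 and 132 without cKO males 1, 2, 3 and 6, 124 without Ctrl female 1, 391 without Ctrl female 6 and 120 without cKO female 5. All 204 genes kept their sign in each of these fits, but the fits shared nearly all mice with the one that chose the genes.

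**Figure D1:**
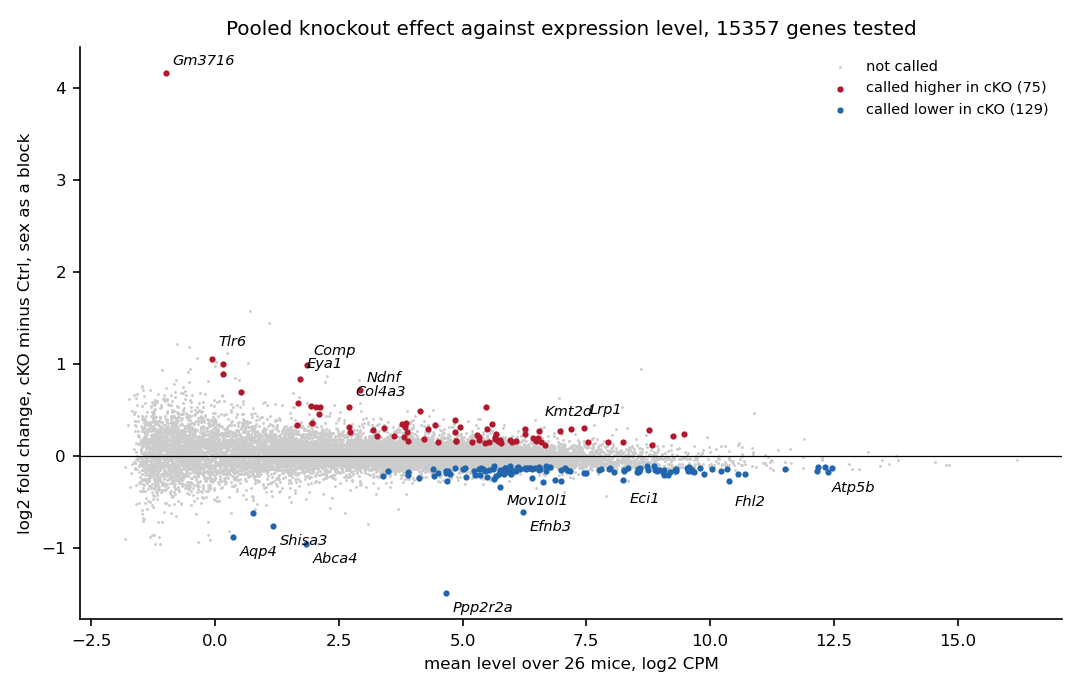
Log2 fold change of cKO over Ctrl, with sex as a block, against the mean level over 26 mice in log2 CPM. Each point is 1 of 15357 genes tested, with 75 genes called higher in red and 129 called lower in blue. Most called lower genes lie close to 0 and at high levels, and Ppp2r2a (-1.49) and Gm3716 (4.17) lie farthest from 0.

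Plotted against expression level, most called lower genes formed a narrow band just under 0 among well-expressed genes. The largest increases were seen in genes of low abundance. Large decreases were seen there too, as in Abca4, Aqp4 and Shisa3 (Ctrl means of 4.83, 1.69 and 2.89 CPM). Called higher genes also included abundant ones with small changes, such as Srrm2 (0.15) and Hspg2 (0.22). A slight change passes the test more readily in a well-counted gene, so the call itself favours this pattern.

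The called genes differed in transcript length, and so did the libraries. The longest annotated transcript had a median length of 1876 bases over the lower genes, 5153 bases over the higher genes and 3192 bases over all genes tested. With the genes divided into 4 equal classes by length, 69 called genes of the shortest class were lower and 5 higher. In the longest class, 6 were lower and 41 higher. The median log2 fold change of all genes was -0.03 in the shortest and 0.04 in the longest class. In each library, the level relative to the mean of all libraries was also regressed on log2 transcript length and GC percent together. The length slope of this fit was positive in 3 of 12 Ctrl and 11 of 14 cKO libraries, with means of -0.012 and 0.010 (permutation p = 0.02 within sex). With the trend of each library with length and GC content removed as an offset, 100 genes were called, 33 higher and 67 lower, of which 81 were among the 204.

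**Figure D2:**
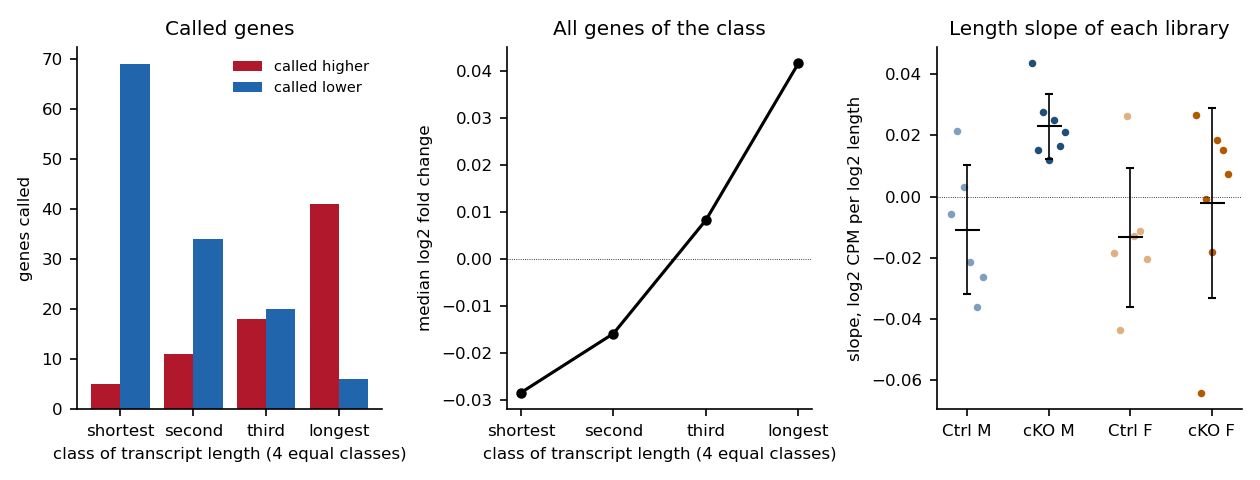
Left, number of genes called higher (red) and lower (blue) in cKO in each of 4 classes of transcript length with equal gene numbers. Middle, median log2 fold change of all genes in each class. Right, slope of log2 CPM on log2 transcript length, fitted together with GC percent, in each library (points), with group mean and SD. The slope was positive in 7 of 7 cKO males and 4 of 7 cKO females.

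The plots by length show that lower calls prevail among short and higher calls among long transcripts, and that 1 cKO female library, number 2, had the lowest slope of all. Without it, 288 genes were called.

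Genes of mitochondrial energy metabolism were lower in cKO. The 10 lists of nuclear genes (5 respiratory complexes, mitochondrial ribosome, protein import, SLC25 carriers, fatty acid oxidation, and pyruvate dehydrogenase with the TCA cycle) held 265 tested genes. Of these, 43 were called lower (16.2%) and 0 higher, beside 0.84% of all genes called lower. Log2 fold changes were negative for 242 of the 265, with a median of -0.10. Over the 82 tested nuclear subunits of oxidative phosphorylation, 81 had a negative log2 fold change and 22 were called lower, with a median of -0.11 against 0.00 over all genes. With the length and GC offset this median was -0.09 and 9 were called. The count was 11 without Ctrl male 1, 8 without Ctrl male 5, 13, 14, 14 and 13 without cKO males 1, 2, 3 and 6, 14 without Ctrl female 1 and 13 without cKO female 5.

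Complex I (NADH dehydrogenase), the entry point of electrons from NADH, had negative log2 fold changes in all 37 tested subunits, of which 11 were called lower. Ndufa9, an accessory subunit, ranged from 478 to 547 CPM in Ctrl with a median of 510, and from 424 to 487 CPM in cKO with a median of 462. Of the 14 cKO mice, 12 lay below every Ctrl mouse. Its log2 fold change was -0.15 (SE 0.03; adjusted p = 0.00686). Ndufs8, which carries iron-sulfur clusters, fell by 0.18 on the log2 scale (SE 0.04; adjusted p = 0.0129). Ndufv2 and Ndufs3 were at -0.15 and -0.13, and neither passed without Ctrl male 5 or with the length and GC offset.

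The later complexes moved the same way. Complex II (succinate dehydrogenase, shared with the TCA cycle) had 2 of 4 subunits called lower, Sdhd at -0.15 (SE 0.03) and Sdhb at -0.17 (SE 0.04). Complex III had 2 of 9 called lower, the core subunits Uqcrc1 at -0.14 and Uqcrc2 at -0.13. Complex IV had 2 of 14 called lower. Cox7a1, the heart and muscle isoform of a small subunit, ranged from 527 to 686 CPM in Ctrl and from 435 to 609 CPM in cKO, with medians of 620 and 520. Its groups overlapped, with 8 of 14 cKO mice below every Ctrl mouse, giving a log2 fold change of -0.20 (SE 0.04; adjusted p = 0.0201). Cox5b was at -0.15, a call lost in 19 of 26 fits that left out 1 mouse. ATP synthase had 5 of 18 genes called lower. Among them Atp5c1, the γ subunit of the rotor, ranged from 1197 to 1359 CPM in Ctrl and from 1067 to 1312 CPM in cKO. In Atp5c1, 11 of 14 cKO mice were below every Ctrl mouse, giving a log2 fold change of -0.16 (SE 0.03; adjusted p = 0.0103). Atp5o, Atp5pb and Atp5b, which encode stalk and catalytic subunits, were at -0.16, -0.14 and -0.12. The calls of Atp5b and Uqcrc1 were lost without Ctrl male 5, that of Uqcrc1 also without Ctrl male 1, and that of Uqcrc2 in 9 of 26 such fits. Sdhd, Uqcrc1, Uqcrc2, Cox5b and Atp5b were not called with the length and GC offset.

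**Figure D3:**
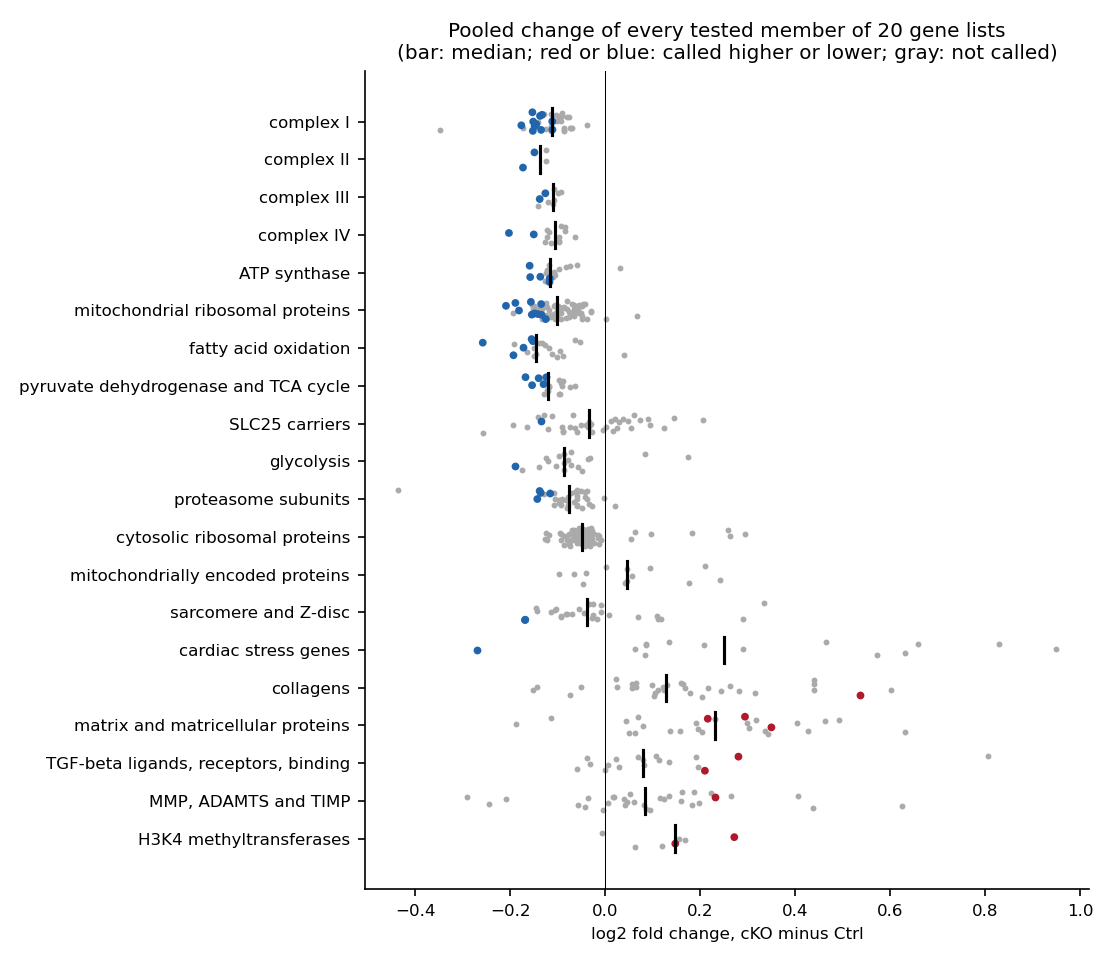
Log2 fold change of cKO over Ctrl for every tested member of 20 gene lists, 1 point per gene, with the list median as a bar. Red and blue points were called higher and lower, and gray points were not called. All members of complexes I to IV lie left of 0, while most collagen and matrix genes lie right of 0.

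Beside the nuclear subunits, the 13 proteins encoded by mitochondrial DNA had 9 positive and 4 negative log2 fold changes, a median of 0.05 and no call. The median was 0.15 in males, with 3 of 13 values negative, and -0.08 in females, with 12 of 13 negative, and this difference was not tested over the list. In the nuclear subunits of oxidative phosphorylation the medians were -0.15 in males and -0.07 in females. Without Ctrl male 4 the pooled median of the mitochondrially encoded genes was -0.01. The largest of these transcripts by level, mt-Co1, had means of 76985 CPM in Ctrl and 74673 in cKO. The regulators of mitochondrial genes had no call either: of 11 tested, the lowest p belonged to Tfam, a mitochondrial transcription factor, at -0.10 (edgeR adjusted p = 0.266), and Esrra, an orphan nuclear receptor, was at -0.07 (edgeR adjusted p = 0.553). Ppargc1a, the coactivator PGC-1α, was at 0.14 (edgeR adjusted p = 0.834).

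The mitochondrial ribosome, which translates the mitochondrial transcripts, had 76 of 78 log2 fold changes negative and 10 genes called lower (median -0.10). Mrpl48, of the large subunit, ranged from 38.0 to 43.8 CPM in Ctrl with a median of 40.9, and from 30.3 to 41.0 CPM in cKO with a median of 36.1. In 11 of 14 cKO mice Mrpl48 lay below every Ctrl mouse (log2 fold change -0.21, SE 0.04; adjusted p = 0.00416). Aurkaip1, a small-subunit protein that is not among the 78 listed genes, was at -0.16 (SE 0.03), with 12 of 14 cKO mice below every Ctrl mouse. Mrpl51, Mrpl58 and Mrpl54 were at -0.15, -0.13 and -0.16. The number of called genes in this list ranged from 3 without Ctrl female 1 to 18 without Ctrl female 6 and was 4 with the length and GC offset. Mrpl58 lost its call with that offset, and Mrpl54 without Ctrl male 3, Ctrl male 5 or Ctrl female 1.

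Fatty acid oxidation had 22 of 23 log2 fold changes negative and 5 genes called lower (median -0.15). Eci1, an isomerase for unsaturated fatty acids in β-oxidation, ranged from 290 to 382 CPM in Ctrl with a median of 332, and from 238 to 308 CPM in cKO with a median of 287. All 14 cKO mice were below the Ctrl mean of their sex and 8 were below every Ctrl mouse. Its log2 fold change was -0.26 (SE 0.04; adjusted p = 0.00277), the smallest p among lower genes after Ppp2r2a. Acadvl, the very-long-chain acyl-CoA dehydrogenase, fell by 0.19 on the log2 scale (SE 0.04; adjusted p = 0.0116). Acat1, a thiolase, and Etfb, a subunit of the electron transfer flavoprotein, were each at -0.15, and each call was lost in 12 of 26 fits without 1 mouse and with the length and GC offset. The list's count ranged from 2 to 11 over those fits, the highest without Ctrl female 6, and was 2 with the length and GC offset. Cpt1b, the muscle carnitine palmitoyltransferase that admits fatty acids to mitochondria, was at -0.11 (edgeR adjusted p = 0.433).

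All 20 tested genes of pyruvate dehydrogenase and the TCA cycle had negative log2 fold changes, and 5 were called lower (median -0.12). Sucla2, a subunit of succinyl-CoA ligase, ranged from 567 to 748 CPM in Ctrl with a median of 664, and from 560 to 645 CPM in cKO with a median of 597. The groups overlapped widely, but all 14 cKO mice lay below the Ctrl mean of their sex (log2 fold change -0.15, SE 0.03; adjusted p = 0.0103). Fh1 (fumarase), Pdhb and Idh3b were at -0.14, -0.17 and -0.12. With the length and GC offset none of the 20 was called, while the list median was -0.10. Without Ctrl male 5 the calls of Pdhb and Idh3b were lost and 2 genes of the list were called, and without Ctrl female 6 there were 12.

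Genes for mitochondrial protein import had 21 of 24 negative log2 fold changes and no call, with Timm23 at -0.13 (edgeR adjusted p = 0.0542) and Timm44 at -0.14 (edgeR adjusted p = 0.0617). Among 39 SLC25 carriers, the list was split, with 23 negative values. Slc25a4, the ADP/ATP carrier of heart and muscle, was the only carrier called, at -0.14 (SE 0.03), and its call was lost without Ctrl male 5 and with the length and GC offset.

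**Figure D4:**
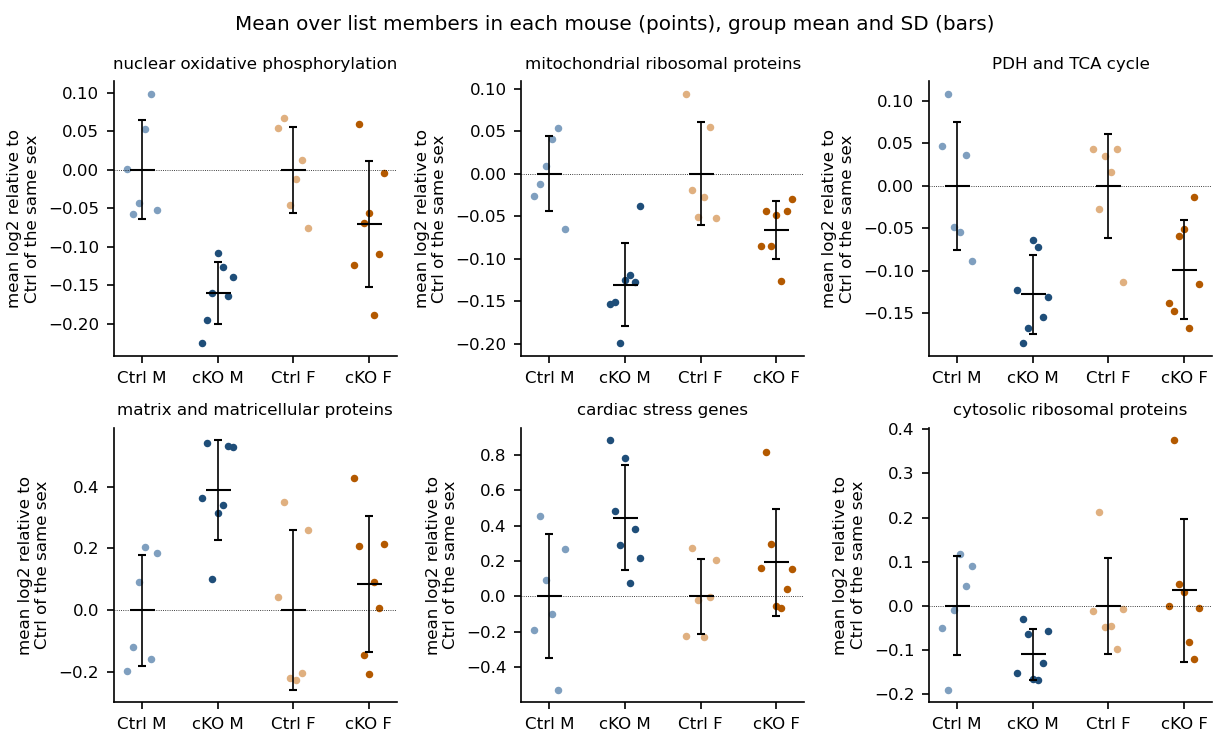
Mean log2 level of 6 gene lists in each mouse (points) relative to the mean of the Ctrl mice of the same sex, with group mean and SD (bars; 6 Ctrl and 7 cKO mice per sex). For oxidative phosphorylation, 13 of 14 cKO mice lie below 0 and 10 lie below every Ctrl mouse.

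Averaged over the 82 oxidative phosphorylation subunits, single mice ranged from -0.08 to 0.10 in Ctrl and from -0.23 to 0.06 in cKO, relative to Ctrl of the same sex on the log2 scale. The mean for the mitochondrial ribosome was below 0 in all 14 cKO mice, and so was that for pyruvate dehydrogenase and the TCA cycle. In the plot of list means by mouse, the spread within a group was of the same size as the shift between genotypes for the matrix and cardiac stress lists.

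The promoters of called genes were searched for 6 short motifs in RefSeq sequences of GRCm38.p6 that span 250 bases before to 50 bases after each start site, on both strands. Of the genes tested, 10970 had a sequence, including 103 called lower and 52 called higher, and a gene counted once where any of its start sites held the letters. The letters AAGATGGC, read by the factor YY1, were in the promoters of 5% of all genes tested, 10.7% of called lower genes, 3.85% of called higher genes and 11.6% of genes in the mitochondrial lists. Those of NRF1 (GCGCATGC) were in 5.62% of all, 8.74% of lower, 5.77% of higher and 10.3% of mitochondrial list genes, and those of ETS factors (CCGGAAGT) in 8.6%, 5.83%, 5.77% and 11.2%. The letters for ERR (TCAAGGTCA) and MEF2 (CTAAAAATA) were in 0.337% and 0.465% of all promoters and in 1.34% and 0% of those of the mitochondrial lists, and those for TEAD (ACATTCC) in 3.56% of all, 1.94% of lower, 1.92% of higher and 1.34% of mitochondrial list genes. Matches describe letters and say nothing of binding. The letters AAGATGGC contain ATG, and the window reaches 50 bases into the transcript. A match after the start site may therefore be the start codon of the protein. How many of the matches are start codons was not tested, and the shares above include them. The promoters of 3 named genes that hold the YY1 letters are shown in lower case with those letters, or their reverse complement, in capitals, because they come from 3 different steps of energy metabolism that were lower together. Eci1 lies at chr17:24426433-24426732 on the plus strand, Ndufa9 at chr6:126849095-126849394 on the minus strand and Atp5pb at chr3:105959214-105959513 on the minus strand.
Eci1: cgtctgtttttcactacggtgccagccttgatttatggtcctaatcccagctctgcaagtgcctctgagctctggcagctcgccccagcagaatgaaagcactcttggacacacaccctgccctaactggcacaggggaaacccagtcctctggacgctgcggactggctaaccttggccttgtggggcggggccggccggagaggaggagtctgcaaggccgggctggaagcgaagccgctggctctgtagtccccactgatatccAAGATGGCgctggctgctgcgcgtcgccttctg
Ndufa9: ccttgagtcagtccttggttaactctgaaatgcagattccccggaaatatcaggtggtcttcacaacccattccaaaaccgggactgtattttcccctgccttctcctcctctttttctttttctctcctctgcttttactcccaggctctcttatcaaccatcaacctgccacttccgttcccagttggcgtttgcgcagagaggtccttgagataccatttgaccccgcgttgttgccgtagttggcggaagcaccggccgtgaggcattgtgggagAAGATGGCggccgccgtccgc
Atp5pb: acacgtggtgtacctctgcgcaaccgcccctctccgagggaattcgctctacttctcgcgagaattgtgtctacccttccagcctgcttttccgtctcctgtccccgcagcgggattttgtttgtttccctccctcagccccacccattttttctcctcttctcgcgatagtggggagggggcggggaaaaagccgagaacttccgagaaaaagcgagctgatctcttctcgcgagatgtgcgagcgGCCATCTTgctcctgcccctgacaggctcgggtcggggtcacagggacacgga
The letters began 17 bases after the start site in Eci1 and 29 bases after it in Ndufa9, and 3 bases before it, in the reverse complement, in Atp5pb. In Eci1 and Ndufa9 they read AAGATGGC along the transcript, with the ATG inside it. Those 2 matches may therefore be start codons and not sites for YY1, which was not tested.

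Protein turnover and cytosolic metabolism showed smaller shifts. Of 38 proteasome genes, 37 had a negative log2 fold change (median -0.08). Of the 38, 4 were called lower (10.5%, beside 0.84% of all genes tested). Among them were Psmc2, an ATPase of the regulatory particle, at -0.14 (SE 0.03, edgeR adjusted p = 0.0189) and Psmb3, of the core, at -0.14. Psma4 (-0.12) lost its call without Ctrl male 1, Ctrl male 5, cKO male 1, Ctrl female 1 or cKO female 5, and Psmb2 (-0.14) in 20 of 26 such fits. With the length and GC offset no proteasome gene was called, and without cKO female 2 there were 8. In glycolysis, 17 of 19 values were negative and 1 gene was called: Eno3, the muscle enolase, at 1450 to 2004 CPM in Ctrl and 1434 to 1669 CPM in cKO (log2 fold change -0.19, SE 0.04; adjusted p = 0.0133). Cytosolic ribosomal proteins had 76 of 83 negative values, a median of -0.05 and no call. Their median was -0.13 in males and 0.03 in females, the cKO female 2 library was highest of all, and reads of their many pseudogene copies may have been split. Among 16 heat shock chaperones, Hspd1, the mitochondrial chaperonin HSP60, was the only one called, at -0.17 (SE 0.04; adjusted p = 0.0281), and not without Ctrl male 3, Ctrl male 5, Ctrl female 1 or cKO female 5 or with the length and GC offset. The antioxidant enzymes had no call (Prdx1 at -0.12, edgeR adjusted p = 0.058, and Txn2 at -0.09, edgeR adjusted p = 0.0847).

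Most genes of the contractile apparatus were not called. Of 28 sarcomere and Z-disc genes, 21 had a negative log2 fold change (median -0.04). Of the 28, 2 were called lower (7.14%, beside 0.84% of all genes tested). The list mean was below that of Ctrl of the same sex in 8 of 14 cKO mice. Myl3, the ventricular essential light chain of myosin, ranged from 5253 to 6190 CPM in Ctrl with a median of 5639, and from 4633 to 5585 CPM in cKO with a median of 4978. In 11 of 14 cKO mice Myl3 was below every Ctrl mouse (log2 fold change -0.17, SE 0.03; adjusted p = 0.0103). Tnni3, cardiac troponin I, was at -0.17 (SE 0.04), and its call was lost without Ctrl male 5. The 10 cardiomyocyte marker genes all had negative log2 fold changes, with a median of -0.10. Tnni3 and Ckm, the muscle creatine kinase, were called lower (20% of the 10, beside 0.84% of all genes tested). The summed level of the 10 genes was 74208 to 88667 CPM in Ctrl and 66486 to 83220 CPM in cKO. This shift is of the size seen in the mitochondrial lists, and its part in them was not tested. Calcium handling genes had 15 of 18 values negative and no call, with Calm3 at -0.12 (edgeR adjusted p = 0.113) and Hrc at -0.15 (edgeR adjusted p = 0.148).

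Other lower genes had larger changes. Abca4, an ABC transporter known from photoreceptors, ranged from 2.56 to 10.5 CPM in Ctrl with a median of 4.42, and from 1.18 to 4.08 CPM in cKO with a median of 2.37. Its log2 fold change was -0.96 (SE 0.18; adjusted p = 0.0103). Aqp4, a water channel, was at 0.76 to 3.01 CPM in Ctrl and 0.554 to 1.45 CPM in cKO (log2 fold change -0.88, SE 0.20), a call lost without Ctrl male 5 or Ctrl female 1. Shisa3 was at -0.77 (SE 0.16), with 12 of 14 cKO mice below every Ctrl mouse. Efnb3, the transmembrane ligand ephrin-B3, ranged from 58.6 to 128 CPM in Ctrl with a median of 89.2, and from 35.5 to 76.6 CPM in cKO with a median of 59.9. Its log2 fold change was -0.61 (SE 0.11; adjusted p = 0.0103), and the groups overlapped, with 6 of 14 cKO mice below every Ctrl mouse. Epop, a partner of Polycomb complexes, was at -0.62, a call lost in 21 of 26 fits without 1 mouse. Mov10l1, an RNA helicase, was at -0.33 (SE 0.07).

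Enzymes and a membrane chaperone were among the lower genes of smallest p. Hacd1, a dehydratase of very-long-chain fatty acid synthesis, was at 38.9 to 47.2 CPM in Ctrl and 35.1 to 41.0 CPM in cKO (log2 fold change -0.20, SE 0.04; adjusted p = 0.00552). Nit2, an amidase, was at 21.5 to 25.1 CPM in Ctrl and 18.0 to 22.1 CPM in cKO (log2 fold change -0.22, SE 0.04; adjusted p = 0.00686), with nearly equal changes in both sexes (-0.22 and -0.21). Bsg, the partner of monocarboxylate transporters at the cell surface, fell by 0.20 on the log2 scale (SE 0.04).

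The largest increase was in a transcript nearly absent from Ctrl hearts. Gm3716, annotated as a long intergenic non-coding RNA, had 0 to 3 counts per Ctrl library, with 0 counts in 5 of 12, and 4 to 29 counts per cKO library, with a median of 19. The groups did not overlap. No Ctrl library reached the minimum count of 10, so the gene passed the filter only through the cKO mice. Its fold change and lack of overlap therefore add no separate support. Its cKO mean was 0.88 CPM, which is 6.49 times the level that 3 counts make in an average Ctrl library. By the order of genes in GENCODE M21, Gm3716, Tlr6 and Shisa3 lie within 27 consecutive tested genes of chromosome 5, where these 3 genes were the only ones called. The stretch was set to begin at Gm3716 and end at Shisa3 after the calls were seen. Over chromosome 5 as a whole, 14 of 965 tested genes were called (1.45%, beside 1.33% of all genes tested). Whether the calls cluster there was not tested. Tlr6, a Toll-like receptor, was at 0.141 to 1.01 CPM in Ctrl and 0.568 to 2.00 CPM in cKO (log2 fold change 1.06, SE 0.21; adjusted p = 0.0116).

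Ndnf, a secreted glycoprotein first described in neurons, ranged from 3.10 to 7.70 CPM in Ctrl with a median of 5.73, and from 7.86 to 11.8 CPM in cKO with a median of 8.78. Every cKO mouse was above every Ctrl mouse, with a log2 fold change of 0.72 (SE 0.11; adjusted p = 0.00102). Eya1, a transcriptional coactivator with phosphatase activity, ranged from 1.16 to 3.57 CPM in Ctrl and from 2.31 to 6.21 CPM in cKO, with medians of 2.21 and 4.12. In Eya1, 11 of 14 cKO mice were above every Ctrl mouse (log2 fold change 0.84, SE 0.13; adjusted p = 0.00277). Plcg2, a phospholipase C, was at 0.35 (SE 0.06; adjusted p = 0.0042), and Fam81a at 0.49 (SE 0.09; adjusted p = 0.00961). Comp, a matrix glycoprotein of cartilage and activated fibroblasts, ranged from 0.931 to 3.61 CPM in Ctrl and from 2.04 to 7.05 CPM in cKO (log2 fold change 0.99, SE 0.21; adjusted p = 0.0189). Gdf6, a BMP family ligand, was at 0.89 (SE 0.19). Pacsin1, an endocytic adaptor, was at 1.0 (SE 0.24), with log2 fold changes of 1.41 in males and 0.44 in females, and its call was lost in 9 of 26 fits without 1 mouse, 6 of them without a Ctrl male, and with the length and GC offset.

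**Figure D5:**
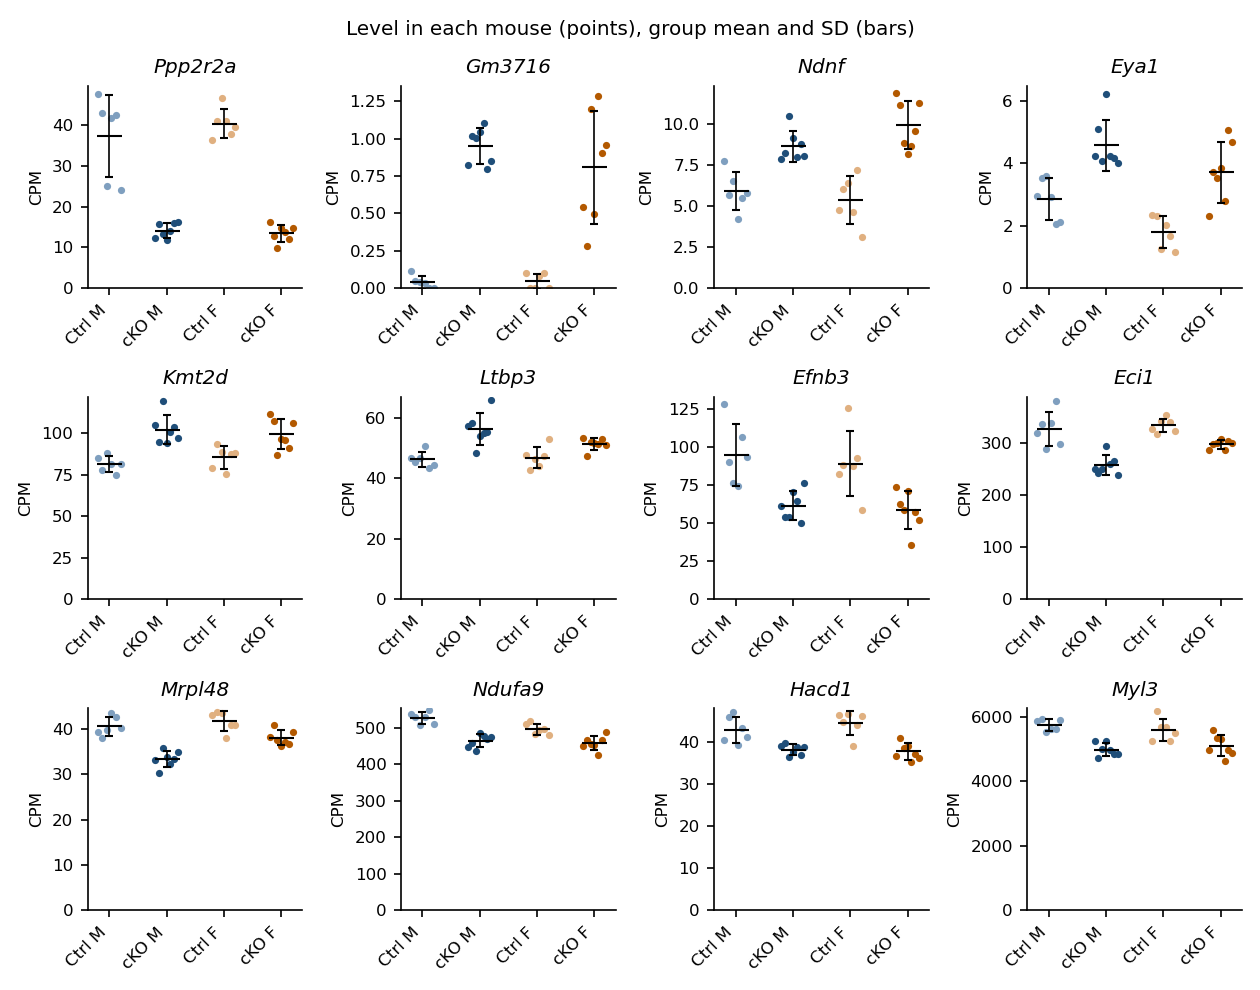
Level of 12 called genes in each mouse (points) in CPM, with group mean and SD (bars), for 6 Ctrl and 7 cKO mice of each sex; the vertical axes start at 0. In Ppp2r2a, Gm3716 and Ndnf no cKO mouse overlaps a Ctrl mouse, while Eci1, Ndufa9 and Myl3 shift by a small part of their level.

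The plot of levels by mouse shows both kinds of change side by side: shifts without overlap in 3 genes, and small shifts with tight groups in abundant metabolic and contractile genes. The genes shown were picked from called genes, which favours such gaps. The share of all genes tested without overlap was not counted.

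The higher genes of smallest p also included Kmt2d, Polr2a and Srrm2. Kmt2d, a histone H3K4 methyltransferase, ranged from 75.1 to 93.7 CPM in Ctrl with a median of 83.4, and from 87.1 to 120 CPM in cKO with a median of 98.8. In Kmt2d, 12 of 14 cKO mice were above every Ctrl mouse, with a log2 fold change of 0.27 (SE 0.05; adjusted p = 0.00397). Of 7 tested H3K4 methyltransferases, 6 had positive values. Of the 7, 2 were called higher (28.6%, beside 0.488% of all genes tested), Kmt2d and Kmt2b (0.15, SE 0.03, edgeR adjusted p = 0.0195). Polr2a, the largest subunit of RNA polymerase II, was at 39.7 to 51.0 CPM in Ctrl and 44.5 to 60.3 CPM in cKO (log2 fold change 0.24, SE 0.04; adjusted p = 0.0103). Srrm2, a scaffold of splicing speckles, was at 0.15 (SE 0.03). These transcripts are long, and with the length and GC offset Kmt2b and Srrm2 were not called, while Kmt2d and Polr2a were. Class IIa HDACs and MEF2 factors, regulators of muscle gene programmes, had no call (Mef2d at 0.11, edgeR adjusted p = 0.112, and Hdac7 at 0.15, edgeR adjusted p = 0.141).

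Genes of the extracellular matrix had mostly positive log2 fold changes, and most of them were not called. Of 27 matrix and matricellular proteins, 25 had a positive log2 fold change, with a median of 0.23. Of the 27, 3 were called higher (11.1%, beside 0.488% of all genes tested). Fbln1, which encodes fibulin-1, ranged from 53.7 to 84.1 CPM in Ctrl with a median of 69.3, and from 63.2 to 110 CPM in cKO with a median of 81.7 (log2 fold change 0.29, SE 0.06; adjusted p = 0.0133). Hspg2, the basement membrane proteoglycan perlecan, was at 0.22 (SE 0.05), and Fn1, fibronectin, at 0.35 (SE 0.09), a call lost in 19 of 26 fits without 1 mouse. Bgn and Postn, a proteoglycan and a matricellular protein of fibroblasts, were at 0.30 (edgeR adjusted p = 0.0625) and 0.40 (edgeR adjusted p = 0.259). The number called in this list was 6 without Ctrl female 6 or without cKO female 4, and 1 with the length and GC offset. The list median was 0.37 in males and 0.10 in females. Of 32 collagens, 28 had positive values (median 0.13) and 1 was called, Col4a3 of basement membranes at 0.54 (SE 0.13; adjusted p = 0.0283), which lost its call with the length and GC offset or without Ctrl male 1, 4 or 5, cKO male 1 or cKO female 5. The collagen median was 0.24 in males, with 5 of 32 values negative, and 0.03 in females, with 13 of 32 negative. The fibrillar gene Col1a1 was at 0.32 (edgeR adjusted p = 0.0962). The 10 fibroblast marker genes all had positive values (median 0.12) and no call, and their sum was 2189 to 3005 CPM in Ctrl and 2379 to 3217 CPM in cKO. The part of fibroblast number in the matrix values was not tested.

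TGF-β is a cytokine stored in the matrix in latent form. Of 18 tested genes for TGF-β family ligands and receptors, binding proteins and SMAD factors, 2 were called higher. This was 11.1%, beside 0.488% of all genes tested. Ltbp3, a latent TGF-β binding protein, ranged from 42.8 to 52.9 CPM in Ctrl and from 47.4 to 65.8 CPM in cKO, and all 14 cKO mice were above the Ctrl mean of their sex (log2 fold change 0.21, SE 0.04; adjusted p = 0.0116). Ltbp4, of the same family, was at 0.28 (SE 0.06; adjusted p = 0.0153). The ligand genes Tgfb1, Tgfb2 and Tgfb3 were at -0.06, 0.19 and 0.08, with no call. Lrp1, an endocytic receptor for matrix proteins and proteases, ranged from 132 to 177 CPM in Ctrl and from 156 to 218 CPM in cKO (log2 fold change 0.30, SE 0.06; adjusted p = 0.0103). Tnxb, a tenascin, was at 0.29 (SE 0.06). Of 32 matrix proteases and their inhibitors, 1 was called, Adamts10 at 0.23 (SE 0.06), lost in 9 of 26 fits without 1 mouse. Pkd1, polycystin-1, was the only one called of 5 tested polycystin and Piezo genes, at 0.20 (SE 0.05), and it was lost in 6 such fits. With the length and GC offset Ltbp4, Lrp1, Tnxb, Hspg2, Fn1, Adamts10 and Pkd1 were not called, and Ltbp3 and Fbln1 were.

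The cardiac stress genes had 13 of 14 positive values, with a median of 0.25, and none was called higher. Nppa, which encodes atrial natriuretic peptide, ranged from 86.1 to 508 CPM in Ctrl with a median of 227, and from 124 to 855 CPM in cKO with a median of 444. Its log2 fold change was 0.95 (SE 0.27) and did not pass (edgeR adjusted p = 0.0766). Ankrd1, a stretch-responsive muscle protein, was at 0.46 (edgeR adjusted p = 0.0901), while Nppb and Myh7 were at 0.14 and 0.29 (edgeR adjusted p = 0.818 and 0.898). The 1 called gene of the list was lower: Fhl1, a LIM protein of the sarcomere, at -0.27 (SE 0.06; adjusted p = 0.0177). The sum of 8 atrial myocyte markers was 106 to 530 CPM in Ctrl and 148 to 884 CPM in cKO, nearly all of it from Nppa. Of that list 4 genes were tested and all had positive values, with Dkk3 (0.57, edgeR adjusted p = 0.0377) and Stard10 (0.29, edgeR adjusted p = 0.05) called higher. These made 50% of the 4, beside 0.488% of all genes tested. The other 4 genes of the list, Myl7, Sln, Upk3b and Bmp10, were too low to test and at 0 in 20, 17, 13 and 9 of 26 libraries. Bmp10 had a median of 0.0195 CPM in Ctrl and 0.181 in cKO and reached at most 0.465 CPM. The part of atrial cells in these values was not tested.

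Further lists gave no call at all. Among the ERK feedback genes, Etv5 was at 0.32 (edgeR adjusted p = 0.0537) and Dusp6, an ERK phosphatase, at 0.16 (edgeR adjusted p = 0.392). In the insulin, AKT and FoxO list, Akt2 was at -0.12 (edgeR adjusted p = 0.103) and Foxo4 at -0.08 (edgeR adjusted p = 0.214). Integrins and laminins (Itga5 at 0.15 and Itga7 at -0.12), clock genes (Per2 at 0.27 and Cry2 at 0.09), immediate-early genes (Fosb at -0.86 and Ier2 at -0.17) and interferon-stimulated genes (Isg15 at -0.25 and Ifi27 at 0.07) also had no edgeR adjusted p under 0.05. Markers of endothelial cells, smooth muscle and pericytes, macrophages, adipocytes, erythroid cells and Schwann cells had no call, and those of activated fibroblasts had 1, Comp.

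Of the 204 called genes, 63 stood in a pathway list and 141 in none. The share of all genes tested that stand in such a list was not counted, so 63 cannot be read as many or few. Some of the latter, chosen after their values were seen, belong near the lists described. Lower genes included the mitochondrial chaperone gene Hspa9 (-0.16), the electron carrier cytochrome c gene Cycs (-0.17), the scaffold gene prohibitin Phb (-0.13), both E1 subunits of branched-chain keto acid dehydrogenase, Bckdha (-0.16) and Bckdhb (-0.20), the lipid droplet gene Fitm1 (-0.29) and muscle genes such as Fhl2 (-0.27), Smyd1 (-0.21), Cav3 (-0.15) and Tmem38a (-0.16). Higher genes included the calcium channel subunit gene Cacna1a (0.45), the cyclin gene Ccnd2 (0.27), the extracellular chaperone gene Clu (0.24), and genes of matrix assembly, Bmp1 (0.16), P4hb (0.16), Pcolce2 (0.32) and Hmcn2 (0.54).

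The shared response had the same direction in both sexes. When the 4 groups were fitted with separate means, all 204 genes had the same sign in males and females, although the pooled call itself favours such genes. The change was larger in males for 164 of the 204. Over the 129 lower genes the median log2 fold change was -0.20 in males and -0.13 in females, and over the 75 higher genes it was 0.29 and 0.21. Taken alone in that fit, males gave 68 calls (0.443% of genes tested) and females 5 (0.0326%). Of the 204, 153 were called in neither sex alone. No gene passed the test of the difference between the sexes (0%, smallest edgeR adjusted p = 0.707). In that test 608 of 15357 genes had an unadjusted p under 0.05, a smaller share than chance alone gives. Of these 608, 14 were among the 204. Among named genes those 14 included Eci1 (-0.35 in males and -0.17 in females), Mrpl48 (-0.28 and -0.13), Sdhb (-0.26 and -0.09), Pkd1 (0.31 and 0.08) and Fn1 (0.53 and 0.17).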

How the data were processed

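Poly-A RNA from left ventricle was sequenced with a stranded kit in 26 mice. The authors deposited 1 matrix of whole-number counts per gene, with no normalization. FastQC 0.74, cutadapt 4.6, STAR 2.7.11a, HTSeq and the build GRCm39 are named in the submitters' processing notes; the annotation release and the strand setting of the counting are not given in the sources used here, so overlapping genes and near-identical copies are uncertain. Per the labels, about 20 mg of tissue and 500 ng of RNA were used and RNA integrity numbers were at least 7.7.

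The model used edgeR 4.0.16 in R 4.3.3: filterByExpr over the 4 groups (minimum count 10, which left 15357 of 56941 genes), TMM scaling, a model with sex and genotype, robust quasi-likelihood F tests and Benjamini-Hochberg adjustment over all genes tested, and 0.05 as the threshold for a call. Each standard error is the absolute fold change over the square root of F. CPM use TMM-scaled totals, and log2 CPM a prior count of 2. The smallest level a library can show, taken as 3 counts, covers counting error only. P-values measure the spread between mice. Chi-square per degree of freedom between libraries of a group was 7.19 to 33.4 over 72 pairs, so no library was counted as a duplicate.

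Transcript length, GC content, gene order and chromosome came from GENCODE M21 (98.3% of genes tested matched by ID), and no coordinates of it are given because the builds differ. The length and GC offset fitted natural splines with 4 degrees of freedom to each library. Other alternatives were DESeq2 1.42.0, limma 3.58.1 voom, sva 3.50.0, other filters, no sex term, each sex alone, the replicate number as a block and each mouse left out. The methods were tested on simulated counts.

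The members and the gene lists were chosen with earlier results of these data known, and the comparison of length slopes was added after the data were seen. Named genes are Ppp2r2a, the 12 higher and 12 lower called genes of smallest p, the 6 of largest change in each direction, and up to 4 called genes of each list (up to 2 where none was called). Genes named for their role in a list or as chosen after their values were seen lie outside that rule.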

Additional observations from a re-analysis of the deposited data

Results flagged for a closer look

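In groups of 6 or 7 mice, the gap between the most extreme mouse and its nearest neighbour was compared with the range of the group. Of 596 such comparisons over named genes, list means and library measures, 26 (4.36%) stood out, where chance gives about 1 in 20. They fell on 16 of the 26 mice.

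Single mice were high, beside the range of the others in their group, for Kmt2d at 120 CPM in cKO male 3 (others 94 to 105), Srrm2 at 339 CPM in cKO male 3 (others 300 to 310), Tlr6 at 1.997 CPM in cKO male 6 (others 1.13 to 1.49), Gdf6 at 2.16 CPM in cKO female 1 (others 0.49 to 1.11) and Mrpl58 at 40.8 CPM in cKO male 4 (others 37.2 to 38.6). The same held for Prdx1 at 320.5 CPM in Ctrl male 5 (others 269 to 282), Rpsa at 634 CPM in cKO female 2 (others 469 to 527), Fbln1 at 84.1 CPM in Ctrl female 1 (others 69.1 to 71.7), Fhl1 at 183 CPM in Ctrl female 3 (others 119 to 137), Kmt2b at 45.2 CPM in cKO female 7 (others 37.4 to 40.3) and Ier2 at 26.1 CPM in Ctrl male 4 (others 12.4 to 16.6). Single mice were low for Ltbp3 at 47.4 CPM in cKO female 2 (others 51.1 to 53.2), Hacd1 at 38.9 CPM in Ctrl female 4 (others 44.1 to 46.7), Ndufs3 at 285 CPM in cKO female 5 (others 313 to 323), Atp5pb at 995 CPM in Ctrl female 6 (others 1116 to 1159.6) and Hrc at 870 CPM in Ctrl female 6 (others 1137 to 1251).

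Among the library measures, Ctrl female 4 had a total of 25.6 in units of 1e6 counts (others 18.7 to 21.2), and cKO male 1 had 16.6% of its counts in mitochondrially encoded genes (others 18.0% to 18.9%). Among list means relative to Ctrl of the same sex, on the log2 scale, single mice stood out for complex IV at -0.26 in cKO male 1 (others -0.16 to -0.11), mitochondrial protein import at 0.0537 in Ctrl female 1 (others -0.02 to -0.00), SLC25 carriers at 0.0567 in cKO male 5 (others -0.05 to -0.01), cytosolic ribosomal proteins at 0.21 in Ctrl female 2 (others -0.10 to -0.01), cytosolic ribosomal proteins at 0.37 in cKO female 2 (others -0.12 to 0.05), cardiac stress genes at 0.81 in cKO female 2 (others -0.06 to 0.29), calcium handling at -0.11 in Ctrl male 4 (others 0.00 to 0.04) and endocardial and lymphatic at -0.30 in Ctrl male 5 (others 0.01 to 0.15). The cKO female 2 library stood apart in 4 of these comparisons, with high cytosolic ribosomal protein and cardiac stress means, high Rpsa and low Ltbp3. Without this mouse the pooled comparison called 288 genes. No difference between the sexes passed the test for any named gene.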

How the results depend on the processing

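The 204 called genes kept their direction under every alternative in which they were tested. Their choice favoured this, as the alternatives reused all or part of the same mice. Called genes, higher and lower, and oxidative phosphorylation genes called lower, were respectively 92, 36, 56 and 9 with no filter, 83, 26, 57 and 9 with no sex term, 566, 171, 395 and 45 with DESeq2's Wald test, 100, 33, 67 and 9 with the length and GC offset, 72, 37, 35 and 3 in males alone, and 1, 0, 1 and 0 in females alone. Limma voom called 355 (141 higher, 214 lower), an adjusted p under 0.01 left 12 (6 and 6), and 116 were higher at a mean of at least 5 CPM. Without Ctrl males 3 and 6, 151 were called (46 higher, 105 lower, 18 of oxidative phosphorylation). Leaving out single mice gave 76 to 391 called, 32 to 150 higher, 44 to 241 lower and 8 to 33 oxidative phosphorylation genes. Ier2 was at 0.0143 in females alone. With the replicate number as a block, 96 were called (42 higher, 54 lower, 11 of oxidative phosphorylation, 5 of the mitochondrial ribosome, 2 of fatty acid oxidation, 1 of pyruvate dehydrogenase and the TCA cycle, 2 of the proteasome and 0 of the matrix list; 77 shared), and 19 (10, 9 and 1) with the length and GC offset as well. The labels do not tie same-numbered mice to each other: 3 of 6 same-numbered pairs of females and 0 of 6 of males correlated above 0.1, and 5 of 24 mice correlated best with their own number. The causes of these shifts were not tested. List medians changed sign for cytosolic ribosomal proteins (females alone) and for 7 other lists with no call or 1 (heat shock, immediate-early, interferon-stimulated, insulin with AKT and FoxO, integrins and laminins, mitochondrially encoded proteins and mitochondrial gene regulators). Depth limits genes under about 1 CPM, where a library holds few counts.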
